A study of Mus musculus with 4 samples.

Results

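The high endothelial venule addressin genes described here are 7 mouse genes, picked by symbol from the 26214 gene symbols of each count table: Glycam1, Madcam1, Chst4, Chst2, Fut7, Gcnt1 and Enpp2. They were chosen with their counts in these libraries already known, so their differences between the groups are given as a description and support nothing by themselves. The counts come from RNA-seq of the stromal vascular fraction (SVF) of inguinal white adipose tissue (iWAT), the fat pad under the skin of the groin. In the MHE group, 2 libraries came from mice given a medicinal herb extract, and in the PBS group 2 came from mice given phosphate-buffered saline. The labels call the libraries biological replicates. For the mice, the sources used here state no strain, genotype, age or diet, and for the extract no make-up, dose or length of treatment.

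The libraries held 27161882 to 33391075 counts. SVF is the pellet of digested fat, from which adipocytes float away. Even so, 9 markers of mature adipocytes made up 1.59% to 3.35% of the counts, against 0.0433% to 0.0839% for 7 markers of adipocyte progenitors. PBS replicate 1 stood apart by its epithelial transcripts. Krt8, an epithelial keratin, had 1286 counts there and 2 to 10 in the other libraries, and the epithelial adhesion gene Epcam had 832 against 2 to 99. In bulk RNA, fewer cells of a type and less RNA per cell cannot be told apart.

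High endothelial venules are the tall-walled blood vessels of lymph nodes through which circulating lymphocytes leave the blood. Their endothelial cells display mucin-like proteins that carry sulfated, fucosylated and sialylated sugar chains, known together as peripheral node addressin, to which circulating lymphocytes bind. The protein scaffolds, the sulfotransferases that add sulfate to N-acetylglucosamine, the fucosyltransferase that completes the sialyl Lewis x group and the enzyme that branches the sugar chain are encoded by separate genes. Inguinal fat surrounds a lymph node, and the sources used here do not say whether it was removed before digestion. Enpp2 builds no sugar: it encodes autotaxin, a secreted enzyme that makes lysophosphatidic acid (LPA), which is released by high endothelial cells and also by adipocytes.

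The 3 genes that had 0 counts in at least 1 PBS library were Glycam1, Madcam1 and Chst4, and the 250 bases before their transcription starts are shown for that reason, from RefSeq's GRCm38.p6 annotation, the assembly behind mm10. Each runs 5′ to 3′ on the gene's own strand, and capitals mark matches to an NF-kB-type motif, GGGNNNTTC, on either strand. The windows are chr15:103565082-103565331 (minus strand) for Glycam1, chr10:79664309-79664558 (plus strand) for Madcam1 and chr8:110039335-110039584 (minus strand) for Chst4. Gene positions given below come from another annotation, GENCODE, in which Chst4 spans 110029153 to 110039740. The Chst4 window lies within that span, so it precedes the RefSeq start only.
Glycam1: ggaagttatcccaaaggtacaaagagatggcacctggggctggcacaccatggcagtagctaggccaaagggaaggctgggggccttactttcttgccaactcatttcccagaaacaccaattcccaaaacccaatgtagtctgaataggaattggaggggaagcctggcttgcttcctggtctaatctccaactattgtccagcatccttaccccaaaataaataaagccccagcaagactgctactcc
Madcam1: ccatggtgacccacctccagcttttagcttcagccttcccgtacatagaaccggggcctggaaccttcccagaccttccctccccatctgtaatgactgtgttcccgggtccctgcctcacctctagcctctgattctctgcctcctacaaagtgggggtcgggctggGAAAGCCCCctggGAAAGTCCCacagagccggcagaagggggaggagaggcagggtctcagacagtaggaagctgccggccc
Chst4: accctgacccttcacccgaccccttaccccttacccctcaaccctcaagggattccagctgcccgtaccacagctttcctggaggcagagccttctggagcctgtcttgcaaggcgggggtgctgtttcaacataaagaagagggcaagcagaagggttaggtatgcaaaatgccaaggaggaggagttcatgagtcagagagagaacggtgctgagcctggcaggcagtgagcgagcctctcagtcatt

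The Madcam1 window held 2 matches on the minus strand, 74 to 82 and 61 to 69 bases before the start. Such a match is in 11.8% of the 32851 mouse promoter windows of this length, and in none of the windows of the other members that had one. The motif was chosen after these sequences were seen, and 1 of 9 member windows is near the share of all windows, so nothing is read from it. RefSeq windows were at hand for 6 of the 7 members, 9 windows in all, since Fut7 and Gcnt1 have several starts. The ETS-type letters ACCGGAAGT and the NK2-type letters CACTTGA, found in 0.804% and 2.68% of all windows, were in no member window. TATAAA, found in 12.4% of windows, was in 1 Gcnt1 window. The Chst2 promoter stood out in base composition, with 72.8% G and C and 27 CpG sites against medians of 52.4% and 6 over all windows. Glycam1 had 49.6% G and C and 0 CpG sites.

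Glycam1, a secreted mucin that carries these sugars, showed the widest difference between the groups of the 7 genes. The gene lies on chromosome 15, 103562759 to 103565081. Its counts were 2395 and 801 in the MHE libraries and 2 and 0 in the PBS libraries. As CPM (counts scaled by library depth and composition) these are 72.1 and 28.1 with the extract and 0.0722 and 0 with saline. Both MHE libraries were thus far above both PBS libraries, and they differed from each other 2.56-fold (95% counting interval 2.37 to 2.78). The mean was 50.1 ± 31.1 CPM with MHE (SD, n = 2), and the pooled counts gave a ratio of 1484 (95% counting interval 410 to 12257).

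Madcam1 encodes a mucin-like adhesion molecule with immunoglobulin domains, the ligand of integrin alpha4beta7, and besides gut venules it is found on reticular cells of lymph nodes and on follicular dendritic cells. It lies on chromosome 10, 79664559 to 79668537. It had 58 and 54 counts in the MHE libraries and 0 and 6 in the PBS libraries, or 1.75, 1.90, 0 and 0.203 CPM. The MHE libraries were both higher, with nearly the same level (1.82 ± 0.106 CPM), and a count of 0 in PBS replicate 1 allows up to 0.108 CPM. The log2 fold change, MHE minus PBS, was 4.09 ± 1.19 (SE), and 3.12 with PBS replicate 1 left out. Without PBS replicate 2 only the library with 0 counts is left, against which the MHE mean was at least 16.8-fold higher.

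**Figure D1:**
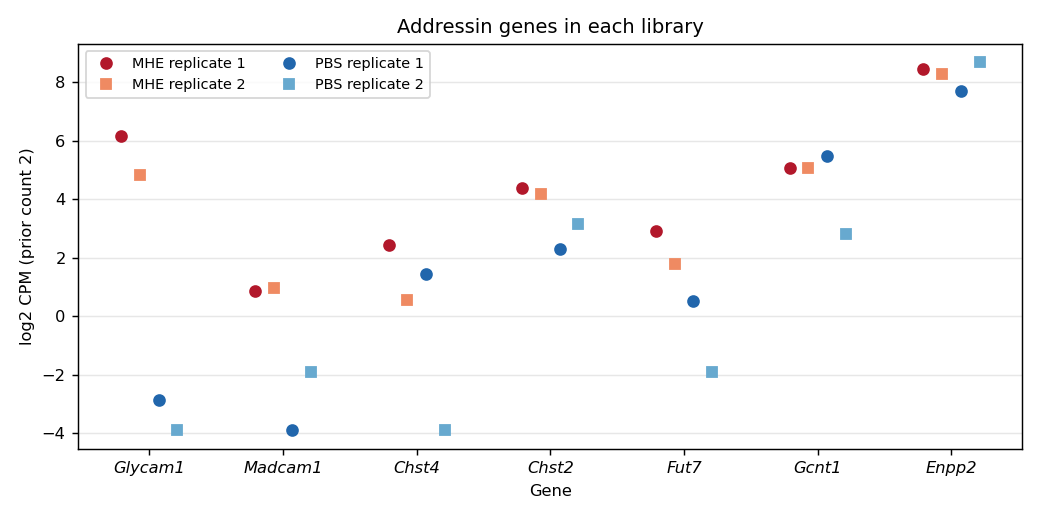
Level of each of the 7 genes in each library, as log2 CPM with a prior count of 2 (vertical axis), with circles for replicate 1 and squares for replicate 2. For Glycam1, Madcam1, Chst2 and Fut7 both MHE points lie above both PBS points, and for Chst4, Gcnt1 and Enpp2 the groups overlap.

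The sulfotransferases of the pathway differed in how they ordered the libraries. Chst4 (chromosome 8, 110029153 to 110039740) encodes the N-acetylglucosamine 6-O-sulfotransferase most restricted to high endothelial cells, though some mucin-making epithelia also use it. It had 179 and 40 counts with MHE and 73 and 0 with PBS, or 5.39, 1.40, 2.63 and 0 CPM. PBS replicate 1 lay between the MHE libraries, so the groups overlapped, and the log2 fold change of 1.37 had an SE of 1.72. Against PBS replicate 2 alone, where 0 counts allow up to 0.101 CPM, the MHE mean was at least 33.5-fold higher, and without PBS replicate 2 the log2 fold change was 0.38. With MHE replicate 1 left out it was 0.11, and with MHE replicate 2 left out 2.05.

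Chst2 (chromosome 9, 95399292 to 95406722) encodes the broadly expressed sister enzyme. It had 20.9 and 18.0 CPM with MHE and 4.91 and 8.96 CPM with PBS. Both MHE libraries were above both PBS libraries, at 19.5 ± 2.06 against 6.93 ± 2.86 CPM (SD, n = 2 each), with a log2 fold change of 1.49 ± 0.36. Chst4 and Chst2 thus differed in the saline group: Chst4 had all its PBS counts in replicate 1, while Chst2 was 1.82 times higher in replicate 2 (95% counting interval 1.48 to 2.26). Per kilobase of transcript, Chst4 was at 0.879 and 0.266 of the Chst2 level in the MHE libraries, at 1.83 in PBS replicate 1 and at 0 in PBS replicate 2.

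Fut7 (chromosome 2, 25423267 to 25426374) encodes the fucosyltransferase that finishes the selectin ligand in high endothelial cells and also in activated T cells and neutrophils. It had 248 and 96 counts with MHE and 38 and 6 with PBS, or 7.47, 3.37, 1.37 and 0.203 CPM. The groups did not overlap, and each varied within itself, by 2.22-fold between MHE libraries (1.74 to 2.83) and 6.76-fold between PBS libraries (2.84 to 19.6). The log2 fold change was 2.78 ± 0.97. It was 4.70 with PBS replicate 1 left out, 1.99 with PBS replicate 2 left out, and 2.11 and 3.26 with MHE replicates 1 and 2 left out.

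Gcnt1 (chromosome 19, 17326141 to 17372844) makes the core 2 branch of O-linked sugar chains, on which selectin ligands are built in endothelium and leukocytes. It stood at 33.9 and 33.7 CPM with MHE and 45.1 and 6.93 CPM with PBS. The MHE libraries were alike, and PBS replicates 1 and 2 lay above and below them, 6.51-fold apart (5.61 to 7.58). The log2 fold change was 0.38 ± 0.81, with 2.27 when PBS replicate 1 was left out and -0.41 when PBS replicate 2 was, so that its direction rests on which saline library is used.

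The library with the highest Gcnt1 and the only saline library with Chst4 was the library with epithelial transcripts. PBS replicate 1 had 46.4 CPM of Krt8 and 30.0 CPM of Epcam, against 0.0676 CPM of each in PBS replicate 2, and 0.120 and 0.351 CPM of Krt8 and 2.98 and 3.41 CPM of Epcam in the MHE libraries. Krt18, the keratin that pairs with Krt8, had 38.2 CPM there and 0.120 to 0.211 elsewhere, and Galnt3, which starts O-linked chains in epithelia, had 4.91 CPM there and 0.135 to 0.913 elsewhere; these 2 genes were picked after their values were seen. The summed level of the 10 mammary epithelial and milk protein markers was 3.49 and 4.21 CPM with MHE and 116 and 0.372 CPM with PBS. Of that list the milk protein genes Csn1s1, Csn1s2a, Csn3 and Wap had 0 counts in every library, which allows up to 0.0903 to 0.108 CPM, so that the list's sum in PBS replicate 1 is almost all keratin and Epcam. The summed level of 6 macrophage markers was also highest in PBS replicate 1, at 954 CPM against 513 in PBS replicate 2 and 418 and 732 with MHE. Of these, Csf1r (268 CPM against 232 in PBS replicate 1) and Mrc1 (190 against 150) were highest in MHE replicate 2. The part of epithelial or macrophage RNA in the Chst4 and Gcnt1 values was not tested.

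**Figure D2:**
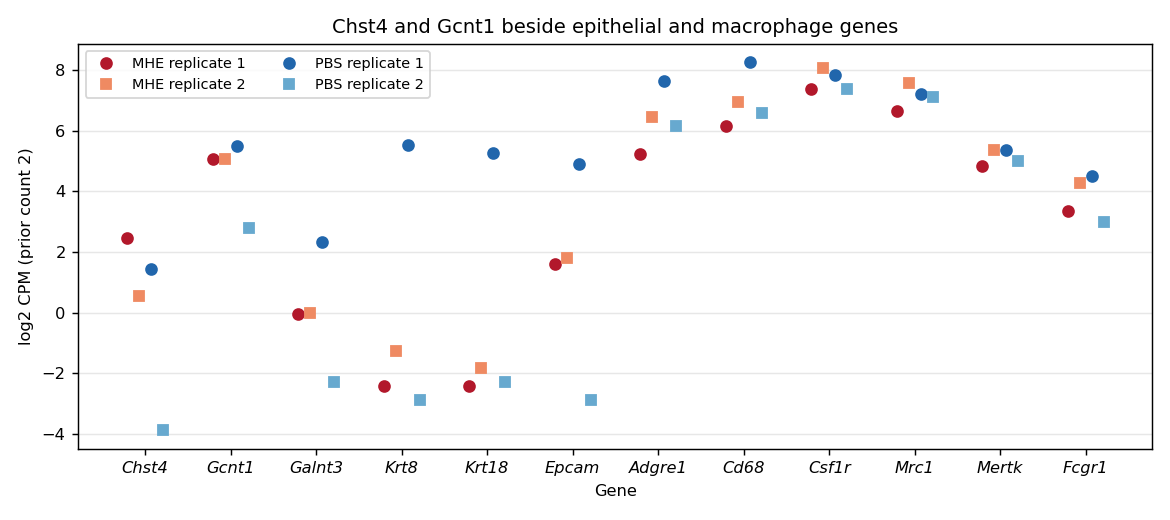
Level in each library, as log2 CPM with a prior count of 2 (vertical axis), of Chst4 and Gcnt1 beside the epithelial genes Galnt3, Krt8, Krt18 and Epcam and the 6 macrophage markers Adgre1, Cd68, Csf1r, Mrc1, Mertk and Fcgr1. PBS replicate 1 (dark blue circles) is the highest library for each gene shown except Chst4, where it lies between the MHE libraries, and Csf1r and Mrc1, where MHE replicate 2 is highest.

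Enpp2 (chromosome 15, 54838901 to 54952892) was the most abundant of the 7 genes by CPM and had the smallest log2 fold change. It had 348 and 314 CPM with MHE and 208 and 411 CPM with PBS, so the saline libraries lay on either side of the MHE libraries. The log2 fold change was 0.10 ± 0.39, with -0.33 when PBS replicate 1 was left out and 0.68 when PBS replicate 2 was. The summed level of the adipocyte markers, a cell type that also makes autotaxin, was 23416 and 15187 CPM with MHE and 26267 and 37787 CPM with PBS. That sum and Enpp2 were both highest in PBS replicate 2, but PBS replicate 1 had the next highest sum and the lowest Enpp2. The summed blood endothelial markers were also highest in PBS replicate 2, at 2400 CPM. The part of adipocyte RNA in the Enpp2 value was not tested. Of the Enpp2 exonic bases, 345 of 5779 overlap an antisense gene model, Gm26684, and without strand those reads cannot be assigned.

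Of the 7 genes, all of which passed the count filter, 1 was called higher with MHE and 0 lower by edgeR's quasi-likelihood test with Benjamini-Hochberg adjustment over 16196 genes. The gene was Glycam1. Over all genes 3.97% were called higher and 0.963% lower, and since the members were chosen on this contrast nothing is read from their count. The same test gave an unadjusted p under 0.05 for 4 members, and 28.6% of all genes had one. In 4 members, Glycam1, Madcam1, Chst2 and Fut7, the libraries of the groups did not overlap with MHE above PBS, which held for 33.1% of genes tested. All 7 log2 fold changes were positive, with a median of 1.49 against -0.02 over all genes.

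Calls on these genes turned on single libraries. With DESeq2, Glycam1, Madcam1, Chst2 and Fut7 were called higher, beside a background of 11.2%. Without PBS replicate 1, the library with epithelial transcripts, Glycam1, Madcam1, Chst4, Fut7 and Gcnt1 were called higher (background 10.5%), and without PBS replicate 2, Glycam1, Madcam1 and Chst2 (7.45%). Without MHE replicate 1 or MHE replicate 2, edgeR called 0 members and 0.00% of all genes, with 1 and 2 members at an unadjusted p under 0.05. Glycam1 had log2 fold changes of 10.32 with all libraries, 9.49 when MHE replicate 1 was left out, 10.86 when MHE replicate 2 was, and 9.37 when PBS replicate 2 was. Against PBS replicate 2 alone it was at least 494-fold higher.

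Levels between genes were compared per kilobase of the longest coding transcript, as RPKM. Enpp2 and Glycam1 were the highest members with MHE, at 107 ± 7.65 and 78.2 ± 48.5 RPKM, which do not differ beyond the spread of Glycam1. Gcnt1 followed at 7.34 ± 0.0298, then Chst2 (2.66 ± 0.281), Fut7 (2.61 ± 1.39), Chst4 (1.58 ± 1.31) and Madcam1 (1.27 ± 0.0737). Among these last 4 genes, neighbours in the order lay within 1 SD of each other. Glycam1 was at or above 96.4% of the 15672 tested genes with a length in MHE replicate 1 and 90.6% in MHE replicate 2, while Madcam1 was at or above no more than 20.6% in either.

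With PBS the order was headed by Enpp2 (99.99 ± 46.4 RPKM) and Gcnt1 (5.65 ± 5.86), and no other member reached 1 RPKM on average. Glycam1 had the lowest mean of the 7, at 0.0563 ± 0.0796 RPKM, followed by Madcam1 at 0.0706 ± 0.0998, and these do not differ beyond their spread. Chst2 (0.946 ± 0.391), Chst4 (0.614 ± 0.868) and Fut7 (0.379 ± 0.398) lay between, each within the SD of the next. Glycam1 and Madcam1 thus had the lowest 2 mean levels with saline, where Glycam1 rests on 2 and 0 counts and Madcam1 on 0 and 6. With MHE, Glycam1 was at 1.00 and 0.432 of the Enpp2 level in replicates 1 and 2, and Madcam1 had the lowest mean. These levels depend on the length used. The longest coding transcript has 641 bases for Glycam1 and 3095 for Enpp2, and all exonic bases number 2133 and 5779.

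The venule genes were also set against the RNA of blood vessels in the same library. The 12 blood endothelial markers summed to 1318 and 1276 CPM with MHE and 1357 and 2400 CPM with PBS. Glycam1 had 54.7 and 22.0 counts per 1000 endothelial marker counts with MHE and 0.0532 and 0 with PBS. Chst2 had 15.9 and 14.1 with MHE and 3.62 and 3.73 with PBS. On this scale the saline libraries of Chst2 were nearly equal (3.67 ± 0.0802), although by CPM they differed 1.82-fold. Enpp2, whose groups overlapped by CPM, had 264 and 246 counts per 1000 with MHE and 153 and 171 with PBS, without overlap. The endothelial sum was highest in PBS replicate 2, which lowers every gene there on this scale. The share of all genes that separate on it was not computed, so nothing is read from these separations. Chst4 (4.09, 1.10, 1.94 and 0, in the same order of libraries) and Gcnt1 (25.7, 26.4, 33.2 and 2.89) overlapped on either scale. With only Pecam1 and Cdh5 in the denominator, no gene of the 7 changed between overlap and separation.

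**Figure D3:**
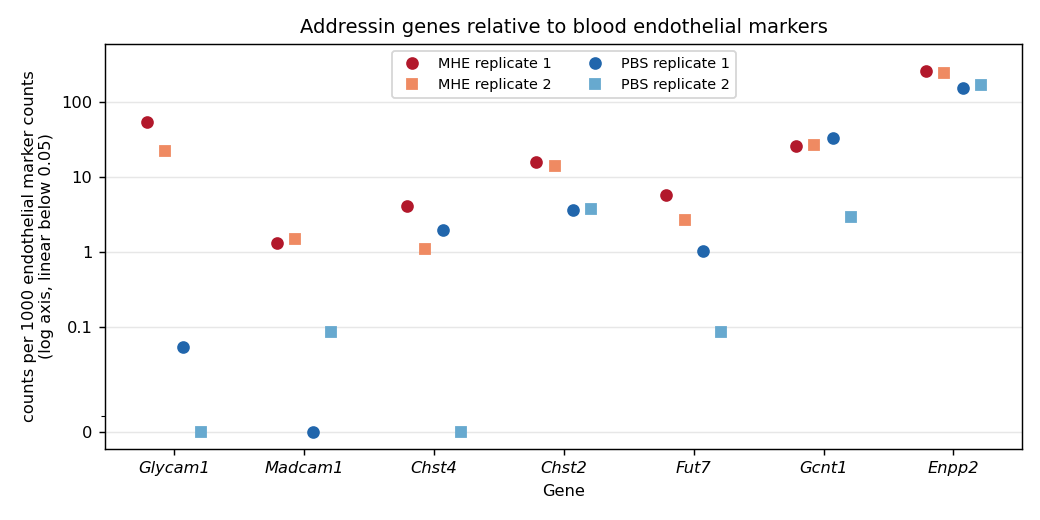
Counts of each gene per 1000 counts of 12 blood endothelial markers in the same library (vertical axis, logarithmic and linear below 0.05). Both MHE points lie above both PBS points for Glycam1, Madcam1, Chst2, Fut7 and Enpp2, and the saline points of Chst2 nearly coincide. The share of all genes that separate on this scale was not computed.

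No other listed gene that builds these sugar-bearing ligands was called by edgeR, which does not show that none differed. In simulated data, where few genes were changed and all had the same spread, the test called 5.6% of genes with a true 2-fold change. With few changed genes the adjustment is stricter than in these data, so that share is not the power for this list. Of 30 listed scaffolds, sugar-chain enzymes and donor transporters, 29 were tested and edgeR called 0, against 4.93% of all genes called in either direction. The tests gave 5 genes with an unadjusted p under 0.05, while DESeq2 called 4 (19.3% of all genes) and limma-voom 1 (1133 of 16196 genes). The median log2 fold change was -0.30 and 11 of 29 values were positive. Fut9, a fucosyltransferase, had 0 counts in 3 libraries and did not pass the filter.

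The scaffold gene Cd34, a sialomucin of vessels and progenitors, had 76.9 and 101 CPM with MHE and 155 and 212 CPM with PBS (adjusted p = 0.0954). Podxl, another scaffold of the same family, had 43.6, 66.7, 51.6 and 104 CPM in the same order of libraries, with overlap. The log2 fold changes of these scaffolds were -1.04 and -0.49, against positive values for Glycam1 and Madcam1. Among enzymes, the galactose sulfotransferase gene Chst1 had a log2 fold change of -0.95 ± 0.22 (adjusted p = 0.0755) and the sialyltransferase gene St3gal3 -0.99 ± 0.18 (0.0508), while St3gal4, which caps selectin ligands, had 0.35 ± 0.19. The extended core 1 enzyme gene B3gnt3 had -0.58 ± 0.26. Slc35c1, the GDP-fucose transporter of the Golgi, had 1.12 ± 0.24 (adjusted p = 0.0635).

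Fut4, the other leukocyte fucosyltransferase of selectin ligands, had 12.7 and 10.4 CPM with MHE and 7.04 and 1.62 CPM with PBS, the same order of libraries as Fut7. Per kilobase, Fut7 was at 1.15 and 0.634 times Fut4 in the MHE libraries and at 0.382 and 0.245 in PBS replicates 1 and 2. Without PBS replicate 1, 5 genes of the list were called, 2 higher and 3 lower, beside 16.5% of all genes. Leaving out PBS replicate 2 gave 2 calls (1 higher and 1 lower), beside 14.6% of all genes.

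**Figure D4:**
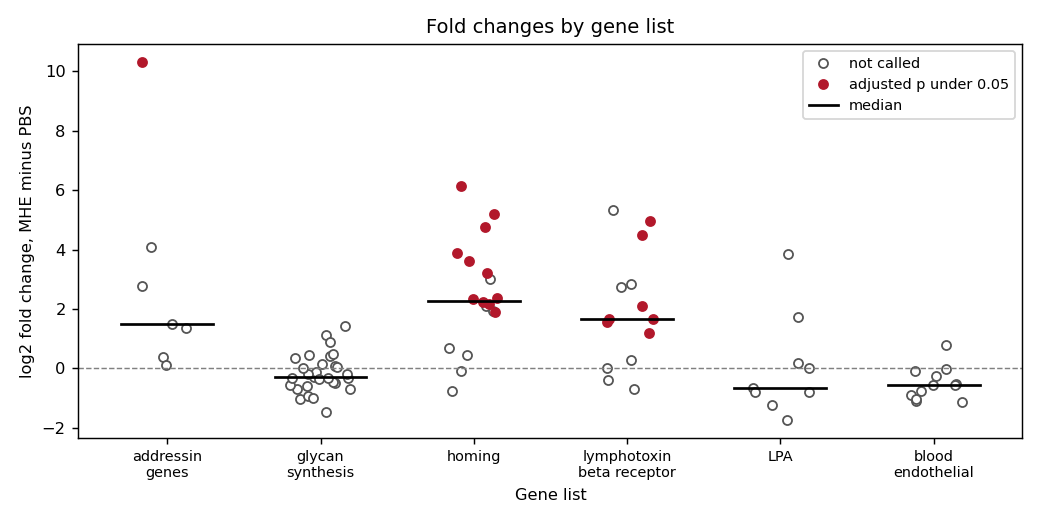
Log2 fold change, MHE minus PBS (vertical axis), of each tested gene in 6 lists, with filled red circles for an adjusted p under 0.05, open circles for the rest and a bar at the median. Called genes lie in the homing and lymphotoxin lists and at Glycam1, and the glycan synthesis and blood endothelial medians lie at -0.30 and -0.58.

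Several genes of lymphocyte entry through venules, among them both subunits of the Madcam1 receptor, were higher with the extract. Of 19 listed receptors, chemokines and adhesion molecules of entry through venules, 18 were tested, and 16 had positive log2 fold changes (median 2.28). The test called 11 higher and 0 lower, beside 3.97% of all genes called higher. Of those subunits, Itgb7 had 128 and 90.1 CPM with MHE and 13.2 and 10.5 CPM with PBS (adjusted p = 0.0210). Itga4 had 157 and 179 CPM against 49.99 and 25.7 (adjusted p = 0.0468). Itgal, the leukocyte integrin subunit of arrest in venules, Cxcr4, a chemokine receptor, and Icam1, the endothelial ligand of Itgal's integrin, rose by log2 values of 3.89, 2.24 and 1.91.

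Venular genes outside the sugar pathway did not share one direction. Selp, the P-selectin of venules and platelets, had 6.41 and 8.88 CPM with MHE and 11.2 and 15.1 CPM with PBS (adjusted p = 0.176). Sele, the E-selectin of inflamed endothelium, was near the lower limit of detection, at 25 and 43 counts with MHE and 4 and 11 with PBS (adjusted p = 0.168). Ccl21a, the chemokine that arrests lymphocytes in these venules and is also made by lymphatic vessels, had 630 and 375 CPM with MHE and 124 and 1.22 CPM with PBS (adjusted p = 0.319). PBS replicate 1 thus had 3446 counts of Ccl21a but 2 of Glycam1. Ccl19 had 0 counts in every library, and since both chemokine genes have near-identical copies in the mouse genome their counts are uncertain. Without MHE replicate 1 or MHE replicate 2, 0 genes of the list were called (12 at an unadjusted p under 0.05 each), beside 0.00% of all genes, and 13 were called higher when either PBS library was left out, beside 10.5% of all genes without replicate 1 and 7.45% without replicate 2.

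Lymphotoxin from lymphocytes, acting through the lymphotoxin beta receptor and the alternative NF-kB pathway, maintains high endothelial cells in lymph nodes. Of 15 listed genes of this pathway, 14 were tested, and 11 had positive log2 fold changes (median 1.66). The test called 7 higher and 0 lower, beside 3.97% and 0.963% of all genes. Relb, the transcription factor of that pathway, had 57.5 and 54.6 CPM with MHE and 17.9 and 17.8 CPM with PBS (log2 fold change 1.65 ± 0.18, adjusted p = 0.0242). Its partner Nfkb2 rose by 1.67 ± 0.19, the kinase gene Map3k14 by 2.09 ± 0.36 and the adaptor gene Traf3 by 1.55 ± 0.22. The receptor gene Ltbr itself had 35.0 and 37.7 CPM with MHE and 57.1 and 61.3 CPM with PBS (adjusted p = 0.0912). The ligand gene Ltb had 256 and 173 CPM with MHE and 9.93 and 0.676 CPM with PBS (log2 fold change 5.34 ± 1.25, adjusted p = 0.0767). Nkx2-3, a transcription factor of Madcam1 in gut and spleen vessels, had 0 counts in every library. Without either MHE library 0 were called (9 and 11 at an unadjusted p under 0.05 without replicates 1 and 2), beside 0.00% of all genes. Without PBS replicate 1 and without PBS replicate 2, 10 were called higher each, beside 10.5% and 7.45% of all genes.

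Receptors and phosphatases of LPA, the product of autotaxin, gave no call by edgeR in 9 tested genes, with 5 at an unadjusted p under 0.05, 4 called by DESeq2 and 1 by limma-voom (median -0.66). Over all genes these shares were 4.93%, 28.6% and 19.3%, and 1133 of 16196 genes by limma-voom. Lpar2, the receptor with the widest difference, had 9.48 and 10.2 CPM with MHE and 1.23 and 0.135 CPM with PBS (log2 fold change 3.85 ± 0.94, adjusted p = 0.0827). Lpar5 had 1.73 ± 0.53 and Lpar3 -1.73 ± 0.40. Lpar1, Lpar4 and Lpar6 had 0.02, -0.79 and 0.18, and the phosphatase gene Plpp2 had -1.23 ± 0.31. The receptors thus lay on either side of 0. Leaving out PBS replicate 1 gave 4 calls among the 9 and leaving out PBS replicate 2 gave 2, beside 16.5% and 14.6% of all genes.

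Markers of lymphoid and lymphatic cells were, in sum, higher in both MHE libraries than in both PBS libraries, as Glycam1 was. T cell markers, 10 in number, summed to 987 and 724 CPM with MHE and 43.8 and 25.2 CPM with PBS, and 8 B cell markers to 1709 and 1358 against 104 and 6.15 CPM. Of 9 listed markers of lymph node reticular and follicular dendritic cells, the 8 in the files summed to 421 and 309 against 39.4 and 20.5 CPM. Most of that sum with MHE came from Fcer2a (161 and 92.1 CPM) and Cr2 (113 and 111 CPM). Cr2 is also a receptor of B cells, so the sum is not specific to stromal cells. Which cells the RNA of these 2 genes came from was not tested. The 7 lymphatic endothelial markers summed to 864 and 612 against 236 and 72.8 CPM. In each of these lists PBS replicate 1 was above PBS replicate 2, as for Fut7, Gcnt1 and Chst4. In the same order, Madcam1 (0 and 0.203 CPM), Chst2 (4.91 and 8.96) and Enpp2 (208 and 411) went the other way. Glycam1 had 2 and 0 counts. The 8 neutrophil markers, another cell that uses Fut7, summed to 25.1 and 13.0 against 19.5 and 10.4 CPM, with Ly6g at 0 counts in every library. By edgeR, 10 of 10 T cell markers and 1 of 8 B cell markers (Cd22) were called higher, beside 3.97% of all genes. So were 4 of 7 tested stromal markers (Cxcl13, Tnfsf11, Cr2 and Fcer2a) and 1 of 7 lymphatic markers (Lyve1). Cxcl13 was also counted in the homing list and Tnfsf11 in the lymphotoxin list. Log2 fold changes were positive for all 10 T cell, 8 B cell and 7 tested stromal markers and 6 of 7 lymphatic markers. Of all genes tested, 48.8% had a positive value. DESeq2 called 10, 7, 6 and 4 of the T cell, B cell, stromal and lymphatic markers higher (11.2% of all genes). The counts with limma-voom were 10, 4, 5 and 2, and Cd22 was not called when no low-count filter was used. In the other lists 1 of 9 adipocyte markers was called lower (Lep), beside 0.963% of all genes, and 1 of 7 progenitor markers higher (Thy1). Thy1 had 239 and 167 CPM with MHE and 27.8 and 49.9 CPM with PBS, and which cells its RNA came from was not tested. Of the 7 progenitor markers, 4 had positive log2 fold changes, while Pdgfra had -0.21, Pi16 -1.88 and Dlk1 -1.14. With all libraries, edgeR called 0 of 12 blood endothelial, 6 macrophage, 4 tested neutrophil and 2 tested mammary markers, which does not show that none differed. Of these, 3, 0, 0 and 1 had an unadjusted p under 0.05, beside 28.6% of all genes. DESeq2 called 2, 0, 0 and 0 of them (19.3% of all genes) and limma-voom 0 in each. The median log2 fold change of the 12 endothelial markers was -0.58 with all libraries and -0.96 when PBS replicate 1 was left out. In that fit the medians of 6 tested neutrophil and 2 tested mammary markers were 1.43 and 3.58, beside 0.03 over all genes. When PBS replicate 2 was left out, the endothelial median was -0.13 and that of all genes -0.01. The medians there were -0.42 for 6 macrophage, -5.42 for 4 tested mammary and 0.44 for 7 progenitor markers. With DESeq2, 3 adipocyte markers were called lower (Adipoq, Lep and Cidec) and 3 progenitor markers higher (Dpp4, Cd55 and Thy1). Of all 15254 genes that it tested, 1237 were called lower and 11.2% higher. The part of each cell type in the addressin values was not tested.

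The genes whose pattern over the 4 libraries was most like a member's were found by the root mean square difference of log2 CPM, centred per gene, among 12609 genes. Nearest to Glycam1 were Cr2 (0.96), a complement receptor of B cells and follicular dendritic cells, the chemokine receptor gene Ccr6 (1.13) and the IgE receptor gene Fcer2a (1.25). Nearest to Madcam1 were Shisa3 (0.33), Cyp2f2 (0.47), Serpini1 (0.55) and the DNase gene Dnase1l3 (0.57). Nearest to Enpp2 were Ankef1 (0.05), the chemokine gene Cxcl14 (0.06), the homeobox gene Meox2 (0.07) and S1pr1 (0.08), the sphingosine 1-phosphate receptor gene of endothelium and lymphocytes. Those 4 libraries also differ in depth and in the share of lymphoid RNA, so likeness over them is a description.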

How the data were processed

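The deposited values are raw read counts for each gene symbol, in 1 file per library. The tools named by the submitters' processing notes are TopHat2, edgeR and limma, and the genome is mm10. How reads were counted, with which gene models and whether by strand, is not given in the sources used here. Counts were analysed with edgeR 4.0.16 in R 4.3.3: filterByExpr (minimum count 10, minimum total 15), TMM factors, a robust quasi-likelihood fit and Benjamini-Hochberg adjustment over 16196 genes at 0.05. SE is the size of a log2 fold change over the root of its F value. Alternatives were DESeq2 1.42.0, limma-voom (limma 3.58.1), other factors and filters, the replicate number as a block, and leaving out each library. On simulated counts with the same spread for all genes, the procedure called 5.6% of genes changed 2-fold and 62% of genes changed 4-fold. Few genes were changed in that simulation, so these shares are not the power in the real data.

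Levels per length used GENCODE M21 (GRCm38) transcripts, found for 15672 of the tested genes and all 7 members, and gene positions come from the same annotation. Ratio intervals are exact 95% intervals and, like the limit for 0 counts (3 counts per library), cover counting error only. The members, the 14 gene lists, the motifs and the tests were chosen with earlier results of these data known, and the NF-kB-type motif after the promoter sequences were seen. Named genes were the members, up to 4 genes of a list with the smallest p, partners listed beforehand by symbol, list genes at 0 counts, and the 4 genes nearest in pattern to Glycam1, Madcam1 and Enpp2; 1 gene that this rule names is not reported here. Protein sequences were not used here. P-values rest on the spread between 2 libraries a group, with each gene's spread drawn toward that of other genes. An exact permutation could not call any gene.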

Additional observations from a re-analysis of the deposited data

How the results depend on the processing

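Of 77 alternative values of the 7 log2 fold changes, 64 kept their direction and side of the threshold, 9 passed where the reported value did not, 2 (both of Glycam1, without an MHE library) no longer passed, and 2 turned: with a library left out, Gcnt1 ranged from -0.41 (without PBS replicate 2) to 2.27 and Enpp2 from -0.33 (without PBS replicate 1) to 0.68. The count of genes called was 799, 2951 with DESeq2 and 0 to 2750 with a library left out, and that of members 1, 4 and 0 to 5. For the glycan synthesis list it was 0, with 4 by DESeq2, 1 each by limma-voom, median-of-ratios factors and the stricter filter, and 0 to 5 with a library left out. The homing list had 11, and 0 to 13 with a library left out. The lymphotoxin list had 7, 11 with DESeq2 and 0 to 10, and the LPA list 0, 4 with DESeq2, 1 with limma-voom and 0 to 4. With a library left out, the lone one of its group is assumed to vary like the other group. Otherwise the causes were not tested. Scaling by library totals alone moved the median of all genes by 0.16 on the log2 scale, and no member's direction turned with it. The replicate numbers share only a number: over 16196 genes, the difference between replicates 1 and 2 correlated at 0.12 between the groups, and with the replicate number as a block 764 genes and 1 member were called, and Itga4 and Thy1 were not. With a prior count of 0.5, 10 of the 12 genes nearest in pattern were the same. Depth limits Glycam1, Madcam1 and Chst4 in saline, at 0 to 73 counts.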
